A study of Homo sapiens with 22 samples.

Results

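VPR and p300 D1399Y were compared as activators that, with the same guide, brought the beta-globin gene HBB to about the same RNA level in HEK293 cells. The comparison covers 4 of the 12 RNA libraries of the series, 2 with VPR and 2 with p300 D1399Y, and all 16694 genes that passed a filter on low counts out of 48162 gene IDs. The pair of groups was chosen because HBB was about equal in them, so the HBB values below are a description and carry no test. The question addressed was how far the RNA of other genes differed between the effectors when the target gene did not.

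HEK293 is a human embryonic kidney line that contains adenoviral DNA. The cells of the VPR sgHBB group carried dCas9-VPR and a guide against HBB, those of the p300 D1399Y sgHBB group carried dCas9-p300 D1399Y and the same guide label, and WT cells carried a guide but no dCas9 fusion. Which guide the WT cells held is not given in the labels, so WT may differ from both groups in the guide as well as in the fusion. Expression was induced with dox for 48 hours in all of them, then GFP+/BFP+ cells were sorted for both effector groups and BFP+ cells for WT. Each group had 2 libraries, described as biological replicates, and it is not stated whether the lines were single clones. With the guide shared, the pair differs in the effector and in whatever separates the cell lines that carry it, and those cannot be told apart here. RNA totals per library ran from 14894558 to 17479523 counts in the 4 libraries, and 13779 to 13837 genes reached 1 CPM, the count scaled to the size of its library. The 2 VPR libraries differed from each other more than those of any other group: the variance between replicates was 13.67 times the Poisson value in VPR sgHBB, 5.17 times in p300 D1399Y sgHBB and 3.47 times in WT, over 11764 to 11965 well-counted genes a group, those averaging 50 counts or more.

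dCas9 is a Cas9 protein that binds DNA where its guide directs it but does not cut. VPR joins the transcription activation domains VP64, p65 and Rta, which recruit the transcription machinery. p300, encoded by EP300, is a coactivator that acetylates histones, including lysine 27 of histone H3, a mark of active promoters and enhancers, and it also binds many transcription factors. The D1399Y substitution lies in its acetyltransferase domain and impairs catalysis, so the mutant serves as a control for the enzymatic activity. HBB is expressed in red cell precursors and is silent in kidney cells.

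HBB (ENSG00000244734) had 65.8 and 95 CPM in the VPR sgHBB libraries, against 76.1 and 82.1 CPM in the p300 D1399Y sgHBB libraries, and no read in either WT library. A count of 0 in both WT libraries allows up to 0.0989 CPM over the group. The 2 VPR libraries enclosed both p300 D1399Y libraries. The log2 fold change of VPR sgHBB over p300 D1399Y sgHBB was 0.02 (SE 0.11, 95% interval -0.20 to 0.25). It was 0.26 without VPR replicate 1 and -0.26 without VPR replicate 2, so the near equality rests on the mean of 2 libraries that lie to either side. In bulk RNA a change in the number of cells that express a gene and a change in the RNA of each cell cannot be told apart. HBQ1, a theta-globin gene of the alpha cluster, was the other globin above 1 CPM, with means of 12.1 ± 0.663 CPM in VPR sgHBB, 13.2 ± 0.239 CPM in p300 D1399Y sgHBB and 15.2 ± 0.693 CPM in WT (SD, n = 2 each). HBE1, the embryonic globin of the same cluster, had 0 and 0.205 CPM in VPR sgHBB, 0 and 0.0692 CPM in p300 D1399Y sgHBB and 0.0672 and 0.129 CPM in WT. HBG2, a fetal globin with a near-identical copy, had 0.253 and 0.205 CPM in VPR sgHBB, 0.116 and 0.484 CPM in p300 D1399Y sgHBB and 0.134 and 0.259 CPM in WT. HBA1 and HBA2, near-identical alpha-globin genes, had at most 0.137 CPM in VPR sgHBB, 0.277 CPM in p300 D1399Y sgHBB and 0.453 CPM in WT. Apart from HBB, 5 globin genes passed the filter, and 0 of them were called between VPR and p300 D1399Y by edgeR or DESeq2.

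**Figure D1:**
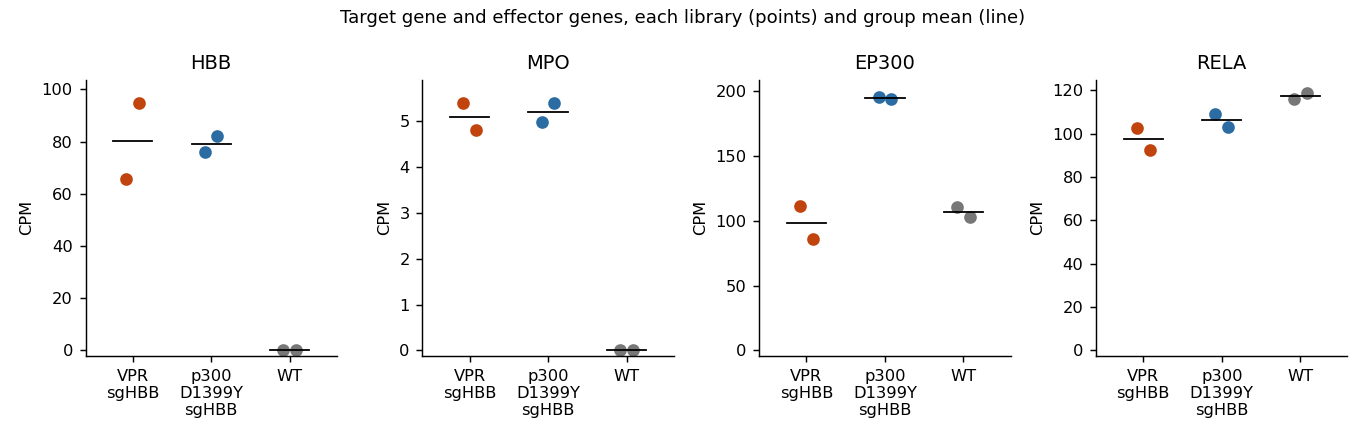
CPM of HBB, MPO, EP300 and RELA in each library (points) and the group mean (line), with VPR sgHBB at the left, p300 D1399Y sgHBB in the middle and WT at the right of each panel. HBB and MPO overlap between VPR and p300 D1399Y and are at 0 in WT, while EP300 lies at 195 and 194 CPM in p300 D1399Y, above the 4 other libraries shown.

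EP300, the gene of the effector in the p300 D1399Y cells, was lower in VPR cells. It had 111 and 86.3 CPM in VPR sgHBB, against 195 and 194 CPM in p300 D1399Y sgHBB, and 110 and 103 CPM in WT. VPR lay 0.98 below p300 D1399Y on the log2 scale (SE 0.09, adjusted p = 1.86e-10), with no overlap between the libraries. Reads from the fused p300 sequence and from the cell's own EP300 gene cannot be told apart in a count per gene. RELA, which encodes p65, had 102 and 92.6 CPM in VPR sgHBB and 109 and 103 CPM in p300 D1399Y sgHBB, a log2 difference of -0.12 (SE 0.08, adjusted p = 0.286). VP64 and Rta are not human genes and were not measured here, and the amounts of the fusion proteins are unknown.

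Away from HBB the 2 effectors differed in many genes, mostly by small amounts. At an adjusted p under 0.05, 1819 genes were higher and 1708 lower in VPR sgHBB than in p300 D1399Y sgHBB, which is 10.9% and 10.2% of all genes tested and 21.1% together. These adjusted p-values, here and throughout, were computed in edgeR (quasi-likelihood F, Benjamini-Hochberg over the 16694 genes). Most differences were small: 278 genes were at least 2-fold higher (1.67%) and 264 at least 2-fold lower (1.58%), and of these 144 were at least 4-fold higher and 93 at least 4-fold lower. The number called depends on single libraries. It was 1977 without p300 D1399Y replicate 1 and 2197 without VPR replicate 2, and 2499 when the 4 libraries were fitted alone. Both libraries of one group lay outside those of the other in 56.3% of all genes tested.

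**Figure D2:**
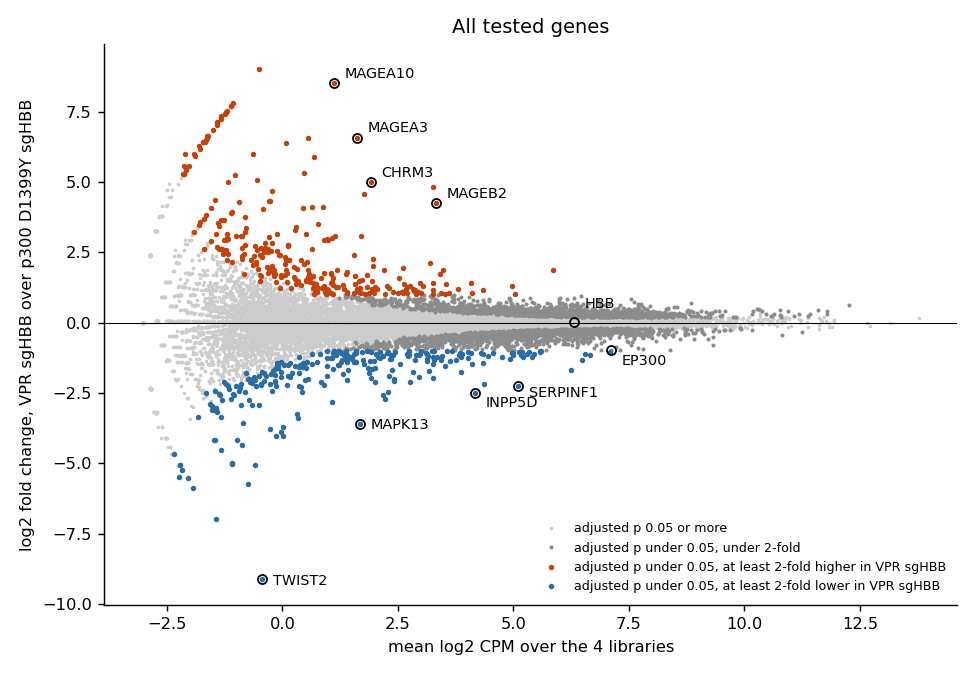
Each point is a tested gene, with its mean log2 CPM over the 4 libraries on the horizontal axis and the log2 fold change of VPR sgHBB over p300 D1399Y sgHBB on the vertical axis. HBB lies at 0.02, while 278 genes (orange) are at least 2-fold higher and 264 genes (blue) at least 2-fold lower in VPR at an adjusted p under 0.05.

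Set against WT, each effector had its own reach. VPR sgHBB differed from WT in 4220 genes, or 25.3% of those tested, with 404 at least 2-fold higher (2.42%) and 112 at least 2-fold lower (0.671%), together 3.09%. p300 D1399Y sgHBB differed from WT in 5045 genes, or 30.2%, with 683 at least 2-fold higher (4.09%) and 322 at least 2-fold lower (1.93%), together 6.02%. Both counts depended on single libraries, and each fell when any 1 library of its comparison was left out. With the compared groups fitted alone, 3562 genes were called for VPR against WT and 5607 for p300 D1399Y against WT. The comparisons share the WT libraries, so their results are given side by side and their agreement is not counted. Distances between group means were taken over the 12821 genes with a mean log2 CPM of at least 1 in the 12 libraries. The root mean square log2 distance was 0.362 for VPR and p300 D1399Y, 0.377 for VPR and WT and 0.475 for p300 D1399Y and WT. The value of 0.362 was the smallest between any pair of the 6 groups.

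The position of the WT libraries was recorded for the genes that differed most. The WT mean is no part of the difference between the effectors, but the WT libraries entered the filter, the scaling and the shared spread. Among the 278 genes at least 2-fold higher in VPR sgHBB, the WT mean lay nearer to VPR in 226 (81.3%). Among the 264 at least 2-fold lower, it lay nearer to VPR in 211 (79.9%). The same share over all genes tested was not computed. By the root mean square log2 distance above, WT was also nearer to VPR (0.377) than to p300 D1399Y (0.475). The other 8 libraries of the series also divided many of these genes. In 125 of the 278 (45%) all WT and VPRP non-target libraries lay above all p300 sgHBB and VPRP sgHBB libraries, VPRP being VPR joined to p300, against 7.02% of all genes tested. In 121 of the 264 (45.8%) they all lay below, against 9.07% of all genes tested. In 113 of the 278 and 101 of the 264 all 12 libraries divided. There VPR sgHBB lay on the side of WT and VPRP non-target, and p300 D1399Y sgHBB on the side of p300 sgHBB and VPRP sgHBB. The division of all 12 includes the 4 libraries that selected these genes, so its counts are a description. Its share over all genes tested was not computed. A division of cell lines along these sides coincides with the effector in this pair and cannot be told apart from it. Without the genes that divide the other 8 libraries in the same direction, 153 were at least 2-fold higher and 143 at least 2-fold lower, and 2625 were called in all.

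The genes with the largest increase in VPR over p300 D1399Y were led by the MAGE cancer-testis antigens. These are X-linked genes normally expressed in the germ line and silent in most somatic tissues. MAGEA10, MAGEA3, MAGEA6 and MAGEB2 each divided all 12 libraries along the sides described above. MAGEA10 (ENSG00000124260) had 24.9 and 27 CPM in VPR sgHBB, against 0 and 0.138 CPM in p300 D1399Y sgHBB, and 9.34 and 9.57 CPM in WT. With 2 reads in p300 D1399Y the ratio of counts was 411 (95% interval 113 to 3400, counting error only, adjusted p = 1.11e-19). The groups were far apart for MAGEB2 too, and p300 D1399Y was the low one, with WT between the effectors. MAGEB2 had 42.7 and 42.6 CPM in VPR sgHBB, against 1.91 and 2.63 CPM in p300 D1399Y sgHBB, and 26.3 and 27.3 CPM in WT (log2 4.25 between the effectors, SE 0.15, adjusted p = 3.61e-21).

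MAGEA3 and MAGEA6 are near-identical copies, and reads could have been split between them by the counting. MAGEA3 had 24.4 and 25.4 CPM in VPR sgHBB, against 0.231 and 0.277 CPM in p300 D1399Y sgHBB, and 12.3 and 11.6 CPM in WT (log2 6.58 between the effectors, SE 0.26, adjusted p = 8.53e-20). MAGEA6 had 50.8 and 46.9 CPM in VPR sgHBB, against 1.68 and 1.8 CPM in p300 D1399Y sgHBB, and 24.4 and 24.3 CPM in WT (log2 4.81 between the effectors, SE 0.17, adjusted p = 2.76e-21). Neither gene's libraries overlapped between the groups, which was a condition for naming them among the largest differences. Their sequences upstream of the start, from RefSeq (GRCh38.p14), are shown because they are the same base for base: 250 of 250 bases match. The windows are chrX:152698544-152698793 on the plus strand for MAGEA3 and chrX:152769690-152769939 on the minus strand for MAGEA6, and capitals mark the dinucleotide CG. This stretch holds 15 CG, against a median of 11 in 35116 windows of the same length upstream of all listed starts (quartiles 3 and 23). DNA methylation was not measured here.
MAGEA3 and MAGEA6: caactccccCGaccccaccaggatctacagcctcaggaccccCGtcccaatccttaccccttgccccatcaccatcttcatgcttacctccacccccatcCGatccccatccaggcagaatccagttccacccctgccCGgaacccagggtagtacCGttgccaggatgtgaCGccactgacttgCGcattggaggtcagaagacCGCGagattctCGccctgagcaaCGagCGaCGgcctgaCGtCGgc

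Of 35 cancer-testis genes listed, 32 matched an ID and 11 passed the filter, and 7 of these were called higher and 0 lower in VPR sgHBB (63.6%, against 21.1% of all genes tested). A gene of this list that is silent in one group passes the filter only through the other, so the count is a description. The median log2 difference of the 11 was 3.25, and 3.90 when 1 member at 0 was set at its limit and 2 without enough reads were left out, against 0.00 over all genes. PRAME, the most evenly expressed, had 66.4 and 69.4 CPM in VPR sgHBB, against 47.3 and 44 CPM in p300 D1399Y sgHBB (adjusted p = 6.87e-06). MAGEC1 had 1.58 and 1.23 CPM in VPR sgHBB and no read in p300 D1399Y sgHBB, where 0 counts allow up to 0.0945 CPM. When genes that divide the other 8 libraries in the same way were left out, 3 of the 7 remained. MAGEA10, MAGEA3, MAGEA6 and MAGEB2 were the ones left out.

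CHRM3, a muscarinic acetylcholine receptor, had 20.3 and 18.4 CPM in VPR sgHBB, against 0.578 and 0.622 CPM in p300 D1399Y sgHBB, and 18.7 and 18 CPM in WT (log2 5.00 between the effectors, SE 0.25, adjusted p = 3.44e-17). TSSC2 had 14.9 and 15.5 CPM in VPR sgHBB, against 0.578 and 0.692 CPM in p300 D1399Y sgHBB, and 36.6 and 37.9 CPM in WT (log2 4.58 between the effectors, SE 0.23, adjusted p = 7.17e-17). For CHRM3 the VPR and WT libraries were close together and p300 D1399Y stood alone, while for TSSC2 both effectors lay below WT. KCNAB3, a beta subunit of potassium channels, GALNT14, an enzyme that starts O-linked glycosylation, and the non-coding RNA LINC01234 were higher in VPR by 3.03, 2.40 and 2.14 on the log2 scale (adjusted p between 3.74e-12 and 1.94e-07). In these 3 genes as well the 8 other libraries of the series fell on the sides described above.

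Some large differences did not follow that division. DPYSL3, a cytoskeletal protein of growing axons, had 9.94 and 8.14 CPM in VPR sgHBB, against 1.27 and 0.83 CPM in p300 D1399Y sgHBB, and 7.12 and 5.89 CPM in WT (log2 3.08 between the effectors, SE 0.26, adjusted p = 1.13e-10). ETS1, a transcription factor of blood and vessel development, had 6.46 and 5.27 CPM in VPR sgHBB, against 0.578 and 0.83 CPM in p300 D1399Y sgHBB, and 5.85 and 5.95 CPM in WT (log2 3.07 between the effectors, SE 0.29, adjusted p = 1.17e-09). In both genes VPR was near WT and p300 D1399Y was low. SNX19, an endosomal sorting protein, PTPRZ1, a receptor tyrosine phosphatase, and GPR37, an orphan receptor of the brain, were higher in VPR by 1.88, 1.76 and 1.72 on the log2 scale (adjusted p = 1.07e-07, 0.000268 and 9.93e-05). CFAP300 and CLMP were called too, at 1.46 and 1.43 on the log2 scale (adjusted p = 0.00524 and 0.00684), but each lost the call in 2 of the 4 fits that left out a library. FZD10-AS1 was higher by 1.72 (adjusted p = 0.000403) and its antisense partner FZD10 by 0.70 (adjusted p = 0.0233), and their reads cannot be assigned with certainty since the strand setting of the counting is not given in the sources used here. The FZD10 call was lost without either VPR library (adjusted p = 0.0658 without replicate 1 and 0.0766 without replicate 2) and without p300 D1399Y replicate 1 (0.298).

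**Figure D3:**
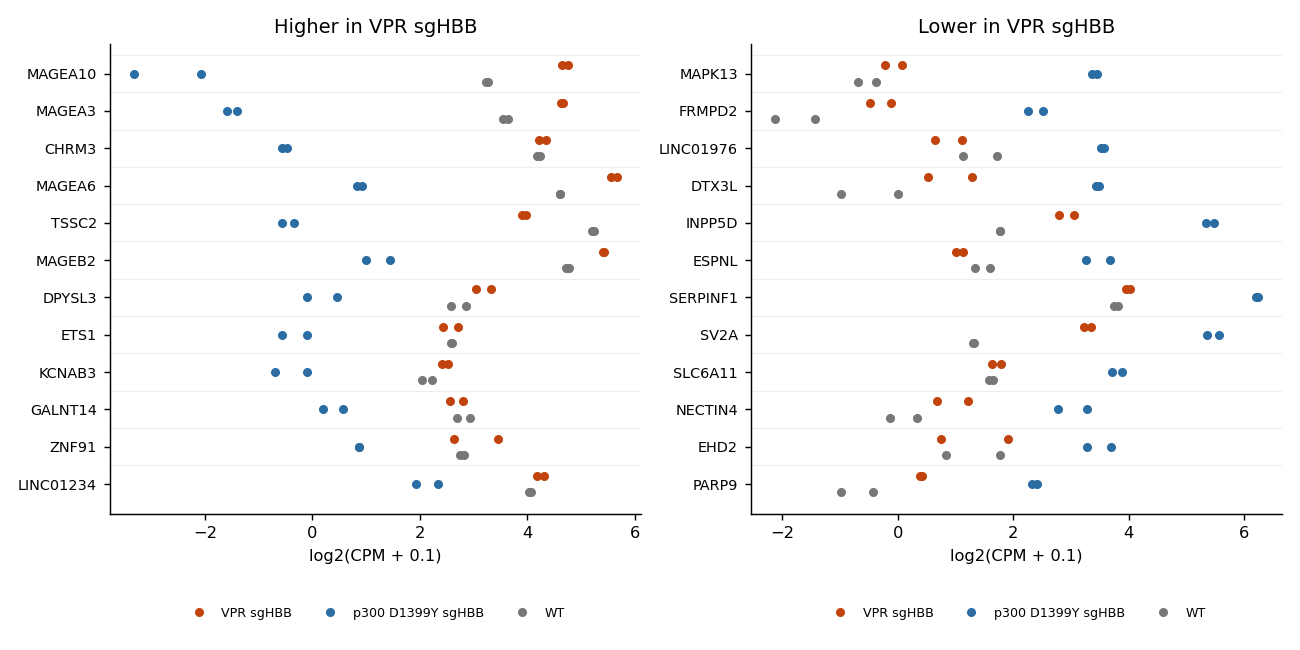
Level of the 12 genes with the largest difference in each direction, as log2(CPM + 0.1), in each library of VPR sgHBB (orange), p300 D1399Y sgHBB (blue) and WT (grey). In each of the 24 genes both VPR libraries lie to one side of both p300 D1399Y libraries, which was a condition of their selection.

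The genes lower in VPR than in p300 D1399Y were mostly ones that p300 D1399Y cells held above WT. INPP5D, the lipid phosphatase SHIP1 of blood cells, had 8.17 and 6.84 CPM in VPR sgHBB, against 44.5 and 40 CPM in p300 D1399Y sgHBB, and 3.29 and 3.3 CPM in WT (log2 -2.49 between the effectors, SE 0.14, adjusted p = 8.43e-16). SERPINF1, a secreted inhibitor of vessel growth, had 16.1 and 15.3 CPM in VPR sgHBB, against 75.4 and 73.3 CPM in p300 D1399Y sgHBB, and 13.9 and 13.3 CPM in WT (log2 -2.24, SE 0.11, adjusted p = 2.62e-17). SV2A, a synaptic vesicle protein, had 9.18 and 10.1 CPM in VPR sgHBB, against 47 and 40.9 CPM in p300 D1399Y sgHBB, and 2.35 and 2.39 CPM in WT (log2 -2.20, SE 0.12, adjusted p = 1.7e-15). In INPP5D and SV2A, VPR was itself above WT (log2 1.19 and 2.01, adjusted p = 1.38e-05 and 1.21e-09), and SERPINF1 in VPR lay 0.21 above WT on the log2 scale (adjusted p = 0.241).

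MAPK13, the p38 delta kinase, had 0.95 and 0.753 CPM in VPR sgHBB, against 10.2 and 10.8 CPM in p300 D1399Y sgHBB, and 0.672 and 0.517 CPM in WT (log2 -3.60, SE 0.29, adjusted p = 1.97e-11). FRMPD2, a scaffold protein, LINC01976, a non-coding RNA, ESPNL, an actin-binding protein, and SLC6A11, a GABA transporter, were lower in VPR by 2.81, 2.73, 2.47 and 2.12 on the log2 scale, written as a size without sign (adjusted p between 1.07e-10 and 1.52e-06). These genes too divided the other 8 libraries in the same direction. NECTIN4, an adhesion protein, and EHD2, a protein of caveolar membranes, did not, and were lower in VPR with log2 values of -2.11 and -2.08 (adjusted p = 3.03e-07 and 2.04e-07). For EHD2 the value was -2.83 without VPR replicate 1, since its VPR libraries were 3.67 and 1.57 CPM. EGR1, an immediate early transcription factor, had 6.14 and 3.76 CPM in VPR sgHBB, against 16.9 and 15.9 CPM in p300 D1399Y sgHBB, and 3.43 and 3.43 CPM in WT (log2 -1.72, SE 0.16, adjusted p = 5.87e-10). EGR1 did not divide the 12 libraries either. SPARC, a matrix glycoprotein, SFN, the 14-3-3 sigma protein, and CEL, a lipase, followed with log2 values of -1.96, -1.69 and -1.64 (adjusted p = 1.34e-06, 1.74e-05 and 5.81e-05).

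DTX3L and PARP9 encode an E3 ubiquitin ligase and the ADP-ribosyltransferase that binds it, and they are transcribed in opposite directions from neighbouring starts. DTX3L had 1.33 and 2.33 CPM in VPR sgHBB, against 11 and 10.7 CPM in p300 D1399Y sgHBB, and 0.403 and 0.906 CPM in WT (log2 -2.58, SE 0.25, adjusted p = 1.63e-09). PARP9 had 1.2 and 1.23 CPM in VPR sgHBB, against 5.2 and 4.91 CPM in p300 D1399Y sgHBB, and 0.403 and 0.647 CPM in WT (log2 -2.05, SE 0.31, adjusted p = 8.57e-06). Both were low in VPR and lower still in WT. The stretch between their starts in RefSeq (GRCh38.p14), shown because the pair moved together, is 37 bases long, at chr3:122564301-122564337 on the plus strand, with no part marked in capitals.
DTX3L and PARP9: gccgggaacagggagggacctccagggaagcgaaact

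Some genes other than HBB were higher than WT with both effectors. MPO, the myeloperoxidase of neutrophils, had 5.38 and 4.79 CPM in VPR sgHBB, against 4.97 and 5.39 CPM in p300 D1399Y sgHBB, and no read in WT (log2 -0.02 between the effectors, SE 0.27, 95% interval -0.58 to 0.53). The VPR and p300 D1399Y libraries overlapped. Against WT, MPO was higher in VPR (adjusted p = 3.53e-10) and in p300 D1399Y (adjusted p = 8.67e-11). It was at 0.122 and 0 CPM in the 2 p300 sgHBB libraries. ELANE, neutrophil elastase, had 1.39 and 1.78 CPM in VPR sgHBB, 2.6 and 2.63 CPM in p300 D1399Y sgHBB and no read in WT. LYZ, lysozyme, had 0.507 and 0.479 CPM in VPR sgHBB, 0.983 and 1.18 CPM in p300 D1399Y sgHBB and no read in WT. The differences of ELANE and LYZ between the effectors did not pass the threshold (adjusted p = 0.267 and 0.24), and those against WT did, in VPR (adjusted p = 1.46e-05 and 0.00667) and in p300 D1399Y (adjusted p = 3.23e-07 and 0.000189).

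Other genes were higher than WT, or lower, with both effectors but to different degrees. EVPL, an envelope protein of epithelia, had 8.87 and 6.77 CPM in VPR sgHBB, against 27.3 and 25.8 CPM in p300 D1399Y sgHBB, and 0.202 and 0.194 CPM in WT (log2 -1.76 between the effectors, SE 0.16, adjusted p = 3.18e-10). COL16A1, a fibril-associated collagen, had 4.24 and 3.28 CPM in VPR sgHBB, against 12.8 and 12.7 CPM in p300 D1399Y sgHBB, and 0.269 and 0.323 CPM in WT (log2 -1.76, SE 0.18, adjusted p = 8.15e-09). In both genes VPR stood between p300 D1399Y and WT. SNAI2, a repressor that drives mesenchymal transition, had 16 and 13.1 CPM in VPR sgHBB, 8.38 and 10.4 CPM in p300 D1399Y sgHBB and 38.2 and 36.2 CPM in WT (log2 0.65 between the effectors, adjusted p = 0.00187, and 0.0721 without p300 D1399Y replicate 1). SNHG7, a small nucleolar RNA host gene, had 87.7 and 98.5 CPM in VPR sgHBB, 69.1 and 66.6 CPM in p300 D1399Y sgHBB and 209 and 218 CPM in WT (log2 0.45, SE 0.08, adjusted p = 5.04e-05).

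Targets of p53, the transcription factor that answers DNA damage and other stress with cell cycle arrest or death, were lower in VPR than in p300 D1399Y for most of the list. Of 26 genes, 21 were called lower, 0 higher and 5 were not called in VPR sgHBB against p300 D1399Y sgHBB, which is 80.8% called against 21.1% of all genes tested. The median log2 difference was -0.36, against 0.00 over all genes. Fewer members of the list were called lower when any 1 library of the pair was left out. Of the 21, 11 remained when genes that divide the other 8 libraries in the same direction were not counted. In 19 of the 26 genes (73.1%) both VPR libraries lay above both WT libraries and below both p300 D1399Y libraries, an order found in 6.48% of all genes tested. Against WT, 19 were higher and 3 lower in VPR, with a median of 0.53. In p300 D1399Y 22 were higher and 1 lower, with a median of 0.93, in comparisons that share the WT libraries. Of all genes tested, 13.8% were higher and 11.5% lower than WT in VPR, and 15.7% and 14.5% in p300 D1399Y.

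CDKN1A, the cyclin-dependent kinase inhibitor p21, had 111 and 108 CPM in VPR sgHBB, against 205 and 196 CPM in p300 D1399Y sgHBB, and 44.8 and 43 CPM in WT (log2 -0.87 between the effectors, SE 0.07, adjusted p = 4.67e-11). GDF15, a stress-induced secreted factor, had 2.53 and 2.6 CPM in VPR sgHBB, against 10.3 and 10.3 CPM in p300 D1399Y sgHBB, and 0.874 and 0.517 CPM in WT (log2 -2.01, SE 0.21, adjusted p = 9.77e-09). The libraries of the 3 groups did not overlap in either gene. SESN1, a sestrin that restrains mTORC1, had 43.7 and 49.7 CPM in VPR sgHBB, against 75.8 and 78.9 CPM in p300 D1399Y sgHBB, and 29.6 and 27.8 CPM in WT (log2 -0.73, SE 0.09, adjusted p = 8.43e-08). TP53I3, a quinone oxidoreductase, had 6.08 and 6.09 CPM in VPR sgHBB, against 16.2 and 14.5 CPM in p300 D1399Y sgHBB, and 2.35 and 2.13 CPM in WT (log2 -1.34, SE 0.17, adjusted p = 2.33e-07). MDM2, the ubiquitin ligase that holds p53 down, was lower in VPR by the same comparison, with 136 and 127 CPM in VPR sgHBB and 178 and 192 CPM in p300 D1399Y sgHBB (adjusted p = 1.41e-05). The 5 members not called were FAS, TP53INP1, PPM1D, BBC3 and PLK3.

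**Figure D4:**
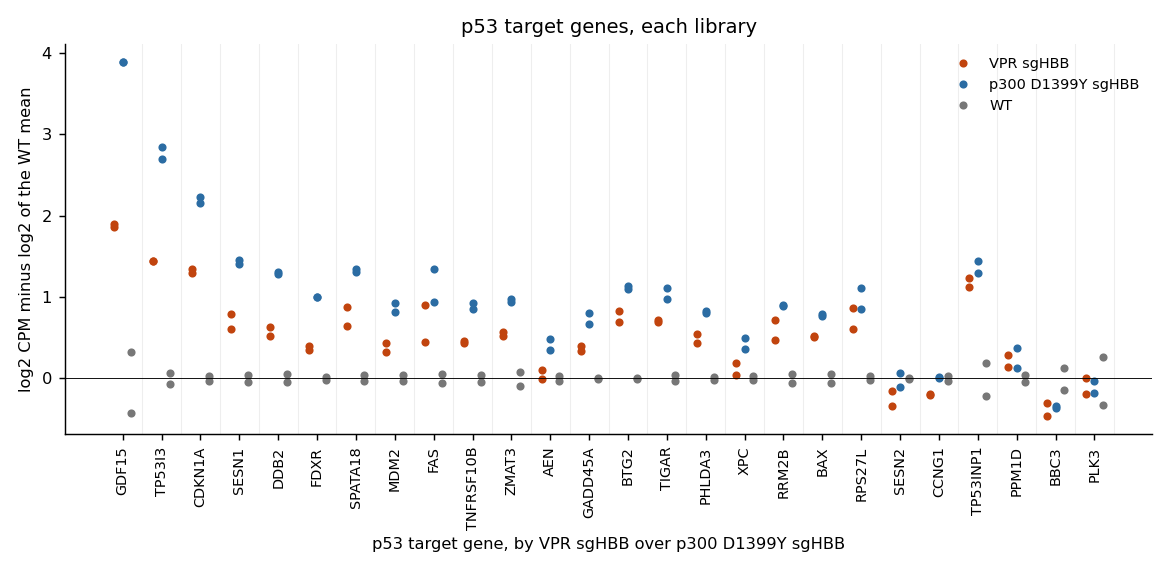
Each library's level of 26 p53 target genes, as log2 CPM minus the log2 of the WT mean, in VPR sgHBB (orange), p300 D1399Y sgHBB (blue) and WT (grey). In 19 of the 26 genes both VPR libraries lie between the WT and the p300 D1399Y libraries.

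The stress lists differed in the other direction, by small amounts: these are genes of the integrated stress response and of the unfolded protein response, which restore amino acid supply and protein folding. Of 35 genes, 15 were called higher and 2 lower in VPR sgHBB (48.6% called, against 21.1% of all genes tested, median log2 0.14). This count rests on the libraries: 6 were higher without VPR replicate 2, 3 without p300 D1399Y replicate 1, 7 without p300 D1399Y replicate 2 and 7 with the 4 libraries fitted alone. ASNS, asparagine synthetase, had 370 and 386 CPM in VPR sgHBB, against 265 and 270 CPM in p300 D1399Y sgHBB, and 462 and 452 CPM in WT (log2 0.50, SE 0.07, adjusted p = 1.34e-06). PSAT1, of serine synthesis, had 483 and 545 CPM in VPR sgHBB, against 378 and 378 CPM in p300 D1399Y sgHBB, and 508 and 495 CPM in WT (log2 0.44, SE 0.07, adjusted p = 1.04e-05). SHMT2, of mitochondrial one-carbon metabolism, followed with log2 0.35 (adjusted p = 0.000406). The 2 members called lower in VPR were NUPR1 and SESN2, and SESN2 is also on the p53 list. Fewer members were called lower when any 1 library of the pair was left out. Against WT, 6 of the 35 were higher and 18 lower in VPR, and 4 were higher and 21 lower in p300 D1399Y. The shares over all genes tested were 13.8% higher and 11.5% lower in VPR, and 15.7% and 14.5% in p300 D1399Y.

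Zinc finger genes of 19p12, a cluster of KRAB repressors many of which bind retrotransposons, had 13 of 26 tested members called higher and 0 lower in VPR sgHBB (50% called, against 10.9% of all genes tested higher and 21.1% called). The other 13 were not called, and 4 of them had log2 values below 0, ZNF254 being the lowest at -0.13. Members nearly without reads in p300 D1399Y passed the filter only through groups where they were higher. The count of 13 called higher is therefore a description. The median log2 difference was 0.92, and 0.62 with 2 members at 0 set at their limits. Between 9 and 12 were called higher when a library was left out, and 3 when genes dividing the other 8 libraries were not counted. ZNF681 had 5.7 and 6.09 CPM in VPR sgHBB, against 0.0578 and 0.0692 CPM in p300 D1399Y sgHBB, and 4.03 and 4.53 CPM in WT, a count ratio of 93.5 between the effectors (95% interval 25.5 to 778, adjusted p = 9.75e-11). ZNF737 had 2.34 and 2.46 CPM in VPR sgHBB, against 0.0578 and 0.0692 CPM in p300 D1399Y sgHBB, and 1.08 and 2.01 CPM in WT, a count ratio of 38.1 (95% interval 10.2 to 321, adjusted p = 1.01e-06). In both genes p300 D1399Y held 1 read in each library and VPR lay near WT. ZNF91, which represses SVA elements, had 6.08 and 10.8 CPM in VPR sgHBB, against 1.73 and 1.73 CPM in p300 D1399Y sgHBB, and 6.99 and 6.6 CPM in WT (log2 2.27, SE 0.26, adjusted p = 5.19e-08).

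The upstream sequences of ZNF681 and ZNF737, from RefSeq (GRCh38.p14), are shown because both members of the family were nearly without reads in the same group. The windows are chr19:23758892-23759141 and chr19:20565782-20566031, both on the minus strand, and capitals mark the letters CCAAT or, for the opposite strand, ATTGG. An alignment matched 198 of 259 columns (76.4%), and each window holds 2 of these motifs, which 32% of all 35116 windows hold at least once. A match describes these letters and is no evidence of a bound factor.
ZNF681: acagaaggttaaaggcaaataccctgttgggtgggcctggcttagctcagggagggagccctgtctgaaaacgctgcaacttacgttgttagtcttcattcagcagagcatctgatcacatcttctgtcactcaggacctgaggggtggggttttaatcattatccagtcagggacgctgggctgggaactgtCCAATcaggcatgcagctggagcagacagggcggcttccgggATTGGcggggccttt
ZNF737: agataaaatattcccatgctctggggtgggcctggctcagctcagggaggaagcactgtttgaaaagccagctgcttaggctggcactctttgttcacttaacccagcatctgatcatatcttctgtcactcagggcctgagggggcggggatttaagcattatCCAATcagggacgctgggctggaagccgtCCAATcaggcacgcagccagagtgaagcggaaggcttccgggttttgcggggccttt

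In 19q13.4, another cluster of the same gene class, the direction was the opposite. There 8 of 27 tested genes were called lower and 0 higher in VPR sgHBB (29.6% called, against 21.1% of all genes tested, median log2 -0.35). Fewer were called lower when any 1 library of the pair was left out. ZNF256 had 1.33 and 0.958 CPM in VPR sgHBB, against 3.93 and 3.18 CPM in p300 D1399Y sgHBB, and 3.56 and 3.3 CPM in WT (log2 -1.63, SE 0.29, adjusted p = 9.12e-05), so here VPR was the group apart from WT. Over all chromosomes, some genes at least 2-fold apart between the effectors lay beside each other in the gene order of GRCh38.p14. Of 248 placed genes at least 2-fold higher in VPR, 36 (14.5%) had an adjacent tested gene that was also at least 2-fold higher, against 3.13% of all 15380 placed genes. Of 240 at least 2-fold lower, 29 (12.1%) had such a neighbour, against 3.02%. The longest runs held 3 genes: MAGEA10, GABRA3 and MAGEA3 on the X chromosome, ZNF506, ZNF253 and ZNF93, and ZNF737, ZNF66 and ZNF85 on chromosome 19, and a run on chromosome 11 that begins with TSSC2 were higher, and TUBGCP3, ATP11A and MCF2L on chromosome 13 were lower. These runs were singled out after their values had been seen.

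HOX genes, which set position along the body axis and are kept in chromatin domains, were called mostly as lower in VPR. Of 35 tested, 11 were called lower and 1 higher in VPR sgHBB (34.3% called, median log2 -0.14), and 7 were called lower without p300 D1399Y replicate 2. HOXB9 had 145 and 134 CPM in VPR sgHBB, against 221 and 220 CPM in p300 D1399Y sgHBB, and 202 and 194 CPM in WT (log2 -0.66, SE 0.07, adjusted p = 7.44e-09). HOXB6 had 11 and 9.92 CPM in VPR sgHBB, against 20.6 and 19.4 CPM in p300 D1399Y sgHBB, and 10 and 12.1 CPM in WT (log2 -0.94, SE 0.15, adjusted p = 2.68e-05). For HOXB9 the group apart from WT was VPR and for HOXB6 it was p300 D1399Y. HOXD1 was the member called higher, with 2.22 and 1.51 CPM in VPR sgHBB against 0.173 and 0.277 CPM in p300 D1399Y sgHBB (log2 3.04, SE 0.59, adjusted p = 0.000231). Polycomb and DNA methylation genes had 3 of 35 higher and 6 lower (25.7% called, near the 21.1% of all genes tested), with BMI1, a Polycomb repressor subunit, at 28.2 and 30.2 CPM in VPR sgHBB and 45 and 43.9 CPM in p300 D1399Y sgHBB (log2 -0.61, adjusted p = 1.34e-05). The 6 ran from 3 to 8, and the 3 from 0 to 2, when each library was left out in turn.

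Writers, erasers and readers of histone acetylation are the class to which the p300 fusion belongs. Of 34, 3 were called higher and 10 lower in VPR sgHBB (38.2% called, against 21.1% of all genes tested, median log2 -0.15). The lower count ran from 7 to 9 with a library left out and the higher count from 1 to 3. EP300 itself was one of the 10, and reads of the fusion and of the cell's own gene are not separated in it. HDAC4 and HDAC2, histone deacetylases, and BRPF1, a scaffold of the MOZ acetyltransferase, were lower with log2 values of -0.64, -0.31 and -0.42 (adjusted p = 0.000808, 0.00114 and 0.00122). HDAC2 had 273 and 286 CPM in VPR sgHBB, against 343 and 349 CPM in p300 D1399Y sgHBB, and 286 and 263 CPM in WT. Replication-dependent histone genes had 0 of 18 called in either direction by edgeR or DESeq2, and in edgeR the smallest adjusted p was 0.0865, for H2BC4.

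Of 24 tested genes of mesenchymal transition, 8 were lower and 4 higher in VPR sgHBB (50% called, against 21.1% of all genes tested). The higher count was 2 without p300 D1399Y replicate 2, and the lower count was 4 when genes dividing the other 8 libraries were not counted. TWIST2, a basic helix-loop-helix factor, had no read in either VPR library, which allows up to 0.0987 CPM, against 4.22 and 4.43 CPM in p300 D1399Y sgHBB and no read in WT (adjusted p = 2.42e-09). MMP2, a gelatinase, had 3.8 and 3.97 CPM in VPR sgHBB, against 14.8 and 15.1 CPM in p300 D1399Y sgHBB, and 2.35 and 3.56 CPM in WT (log2 -1.94, SE 0.20, adjusted p = 3.83e-09). For both genes p300 D1399Y was the group apart. BMP2, a ligand of the BMP pathway, had 0.57 and 0.137 CPM in VPR sgHBB, against 3.35 and 3.67 CPM in p300 D1399Y sgHBB (log2 -3.25, adjusted p = 8.56e-06), and the value was -4.61 without VPR replicate 1 and -2.60 without VPR replicate 2. The target and feedback genes of BMP and TGF-beta around it had 2 of 22 higher and 2 lower (18.2% called), among them ID2, an inhibitor of differentiation factors, with log2 -0.61 (adjusted p = 2.55e-06). Without a library the 2 higher became 0 to 1 and the 2 lower 2 to 4.

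Interferon-stimulated genes are the antiviral programme that foreign nucleic acid can switch on. Of 21 tested, 5 were lower and 1 higher in VPR sgHBB (28.6% called, against 21.1% of all genes tested, median log2 -0.22). DTX3L and PARP9, described above, were 2 of the 5, and 0 of the 5 were left when genes dividing the other 8 libraries were not counted. IFI6, an interferon-induced mitochondrial protein, had 8.74 and 10.6 CPM in VPR sgHBB, against 18.4 and 16.3 CPM in p300 D1399Y sgHBB, and 5.11 and 2.78 CPM in WT (log2 -0.85, SE 0.15, adjusted p = 9.31e-05). ISG15, a ubiquitin-like modifier of the response, was not called (adjusted p = 0.514). MHC class I presentation, with 14 tested, had 4 lower and 2 higher (42.9% called, against the same 21.1%). Its member TAPBP, tapasin, had 25 and 20.5 CPM in VPR sgHBB, 45.9 and 36.2 CPM in p300 D1399Y sgHBB and 14 and 15.6 CPM in WT (log2 -0.85, adjusted p = 8.26e-06). The 4 became 2 without VPR replicate 1 or p300 D1399Y replicate 1, and the 2 became 1 without VPR replicate 2 and 0 without p300 D1399Y replicate 1.

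Imprinted genes are expressed from 1 parental allele. Of 17 tested, 6 were higher and 0 lower in VPR sgHBB (35.3% called, against 21.1% of all genes tested, median log2 0.06). Fewer were called higher when any 1 library of the pair was left out. MKRN3, a ubiquitin ligase gene of the Prader-Willi region, had 4.88 and 4.86 CPM in VPR sgHBB, against 0.405 and 0.138 CPM in p300 D1399Y sgHBB, and 3.56 and 3.23 CPM in WT (log2 4.07, SE 0.45, adjusted p = 1.71e-08). Its value was 5.07 without p300 D1399Y replicate 1. The 5 other called members had log2 values from 0.26 to 0.85, with IGF2, a fetal growth factor, at 4.94 and 3.15 CPM in VPR sgHBB and 2.66 and 1.8 CPM in p300 D1399Y sgHBB (adjusted p = 0.044).

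p65, one of the VPR domains, is a subunit of NF-kB, and 2 of 18 tested NF-kB targets and REL factors were higher and 1 lower in VPR sgHBB (16.7%, below the 21.1% of all genes tested). NFKBIE, an inhibitor of NF-kB, had 15.3 and 14.1 CPM in VPR sgHBB, 11.6 and 8.78 CPM in p300 D1399Y sgHBB (log2 0.52, adjusted p = 0.00643). TNFAIP3, the A20 feedback inhibitor, had 3.36 and 2.6 CPM in VPR sgHBB and 5.14 and 4.15 CPM in p300 D1399Y sgHBB (adjusted p = 0.0509). With a library left out the 2 ran from 0 to 2 and the 1 from 0 to 2. Immediate early genes had 3 of 26 higher and 1 lower (15.4%). JUN, a subunit of AP-1, had 352 and 313 CPM in VPR sgHBB, 263 and 257 CPM in p300 D1399Y sgHBB and 642 and 636 CPM in WT (log2 0.35, SE 0.07, adjusted p = 0.00033), and EGR1, described above, was the member that was lower. The lower count was 2 without VPR replicate 1 or p300 D1399Y replicate 2.

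Growth and cell cycle genes were called in both directions. G1/S genes had 5 of 28 higher and 4 lower (32.1% called, against 21.1% of all genes tested), and none reached 2-fold. GINS2 and MCM6, of the replication fork, were higher with log2 0.42 and 0.30 (adjusted p = 0.000238 and 0.0017), and MCM2, of the same helicase, was lower with log2 -0.35 (adjusted p = 0.000373). G2/M genes had 4 of 31 higher and 1 lower (16.1%), and the higher count ran from 1 to 9 with a library left out, with 9 without VPR replicate 1. Against WT, 22 of the 31 were higher in VPR and 12 in p300 D1399Y, with medians of 0.27 and 0.16. Of all genes tested, 13.8% were higher than WT in VPR and 15.7% in p300 D1399Y. MYC network genes had 2 of 22 higher and 1 lower (13.6%), with 0 to 1 and 1 to 2 when a library was left out. MAPK feedback genes had 3 of 17 higher and 1 lower (23.5%), with 1 to 3 and 0 to 1. CCND1, cyclin D1, had 52.1 and 46.6 CPM in VPR sgHBB, against 21.7 and 17.6 CPM in p300 D1399Y sgHBB, and 54.8 and 60.7 CPM in WT (log2 1.32, SE 0.11, adjusted p = 1.14e-10). ETV5, an ETS factor induced by MAPK signalling, was the MAPK member called lower, with 0.419 ± 0.303 CPM in VPR sgHBB and 1.41 ± 0.533 CPM in p300 D1399Y sgHBB (SD, n = 2 each, log2 -1.73, SE 0.58, adjusted p = 0.0297). Its call was lost without VPR replicate 2 (adjusted p = 0.278), without p300 D1399Y replicate 1 (adjusted p = 0.307) and with DESeq2.

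Several further lists stood near the background, the 21.1% of all genes tested that were called. Wnt pathway genes had 4 of 37 higher and 3 lower (18.9%), and 2 to 3 and 0 to 2 with a library left out. Cholesterol and fatty acid synthesis genes had 4 of 30 higher and 3 lower (23.3%), and 2 to 5 and 3 to 4 with a library left out. SQLE, squalene epoxidase, had 193 and 198 CPM in VPR sgHBB, against 130 and 123 CPM in p300 D1399Y sgHBB, and 355 and 356 CPM in WT (log2 0.63, SE 0.07, adjusted p = 2.45e-08). Heat shock and chaperone genes had 1 of 19 higher and 2 lower (15.8%), and 0 to 3 and 1 to 3 with a library left out. Cleavage-stage embryo genes had 1 of 8 lower, ALPG, which has close copies, at 0.0633 and 0.547 CPM in VPR sgHBB and 1.1 and 1.66 CPM in p300 D1399Y sgHBB (adjusted p = 0.00415, and 0.0945 without VPR replicate 1). Erythroid regulators had 1 of 15 higher and 2 lower (20%). HBS1L, a ribosome rescue factor next to the MYB gene, had 92.3 and 105 CPM in VPR sgHBB, against 156 and 155 CPM in p300 D1399Y sgHBB, and 100 and 97.2 CPM in WT (log2 -0.66, SE 0.07, adjusted p = 2.34e-08). LMO2, a cofactor of GATA1, was the member called higher (log2 0.98, adjusted p = 0.0405) and lost the call without VPR replicate 2 and without either p300 D1399Y library. GATA2 (log2 -0.48, adjusted p = 0.0017) lost it without p300 D1399Y replicate 1 (adjusted p = 0.0791).

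**Figure D5:**
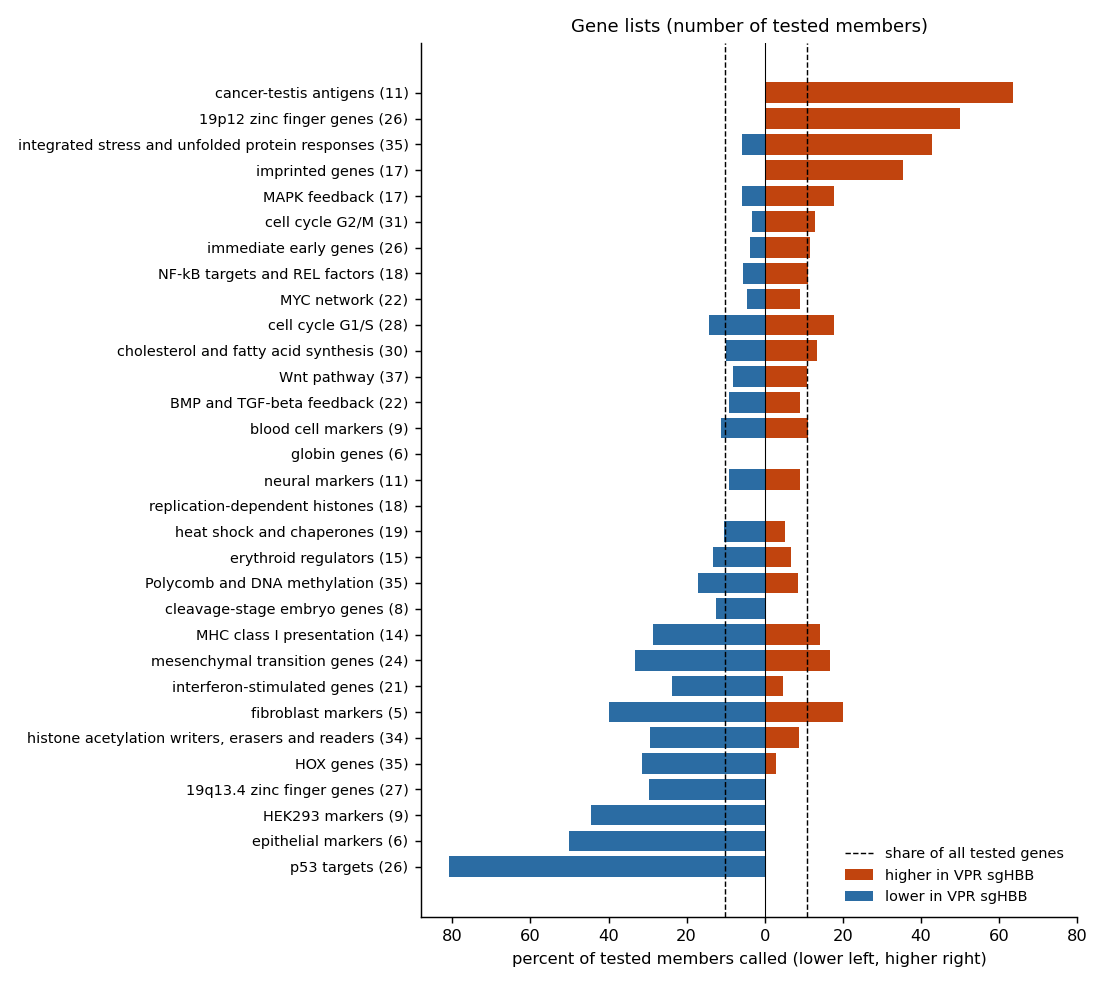
Percent of each list's tested members (their number in parentheses) with an adjusted p under 0.05, higher in VPR sgHBB to the right (orange) and lower to the left (blue). The dashed lines give the 10.9% higher and 10.2% lower of all tested genes. p53 targets lie farthest to the left, with 80.8% called, and cancer-testis antigens farthest to the right, with 63.6%.

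The labelled cell type was checked against its markers and against those of other cells. Of 11 HEK293 markers 9 were matched to an ID and all 9 passed the filter, while NEFL and LHX1 were not matched and not analysed here. The summed level of the 9 was 504.5 to 539.9 CPM in VPR sgHBB, 605.2 to 607 CPM in p300 D1399Y sgHBB and 541.5 to 560.9 CPM in WT. Among them 4 were lower and 0 higher in VPR (44.4% called, where 10.2% of all genes tested were lower and 10.9% higher), including KRT8 and VIM, intermediate filament proteins, with log2 values of -0.71 and -0.56 (adjusted p = 1.17e-07 and 5.93e-07). Epithelial markers had 3 of 6 lower in VPR (50% called), summing to 29.5 to 30.3 CPM in VPR sgHBB, 53.3 to 59.1 CPM in p300 D1399Y sgHBB and 14 to 16 CPM in WT. The 3 became 1 without VPR replicate 2 or p300 D1399Y replicate 1, and EVPL was the member with the largest difference. Fibroblast markers had 1 of 5 higher and 2 lower (60% called) and summed to 26.5 to 32.1 CPM in VPR sgHBB and 38.5 to 45.8 CPM in p300 D1399Y sgHBB, mostly COL1A1. The LUM call among them was lost without VPR replicate 2 and without either p300 D1399Y library, and the PDGFRB call likewise. Neural markers had 1 of 11 higher and 1 lower (18.2% called, near the 21.1% of all genes tested) and summed to 121 to 128 CPM in VPR sgHBB and 118 to 124 CPM in p300 D1399Y sgHBB. Of 15 blood cell markers 9 passed the filter, with 1 higher and 1 lower (22.2% called, near the same background), and both counts ran from 0 to 1 with a library left out. The lower one was SPI1, a transcription factor of myeloid cells, whose call was lost without VPR replicate 1 and without p300 D1399Y replicate 1. PTPRC and CD3E, defining markers of white cells and T cells, did not pass. The part of such markers in the differences between the effectors was not tested.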

How the data were processed

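The series has 12 RNA-seq libraries in 6 groups of 2, and its 10 H3K27ac ChIP-seq samples were not analysed here. RNA values are raw counts as the authors deposited them, 1 row for each gene ID, and columns were assigned to libraries by name. The software listed is deepTools, BWA, DESeq2 1.24.0, HTSeq 0.6.1 and STAR 2.5, on build hg19, per the submitters' processing notes. Neither the annotation release nor the strand setting is given in the sources used here, so assignment is uncertain for genes that overlap, are antisense or have close copies. Symbols matched 33626 of 48162 IDs, and the 14536 others took 0.766% to 0.896% of the counts.

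Counts were analysed with edgeR 4.0.16 (limma 3.58.1) in R 4.3.3: filterByExpr by group (minimum count 10, total 15), TMM factors, 1 mean per group over all 12 libraries, the quasi-likelihood test and Benjamini-Hochberg adjustment at 0.05. "Called" means an adjusted p under 0.05. All 6 groups share the estimate of spread because each has 2 libraries. CPM are scaled by the same factors, and an SE was obtained by dividing the log2 fold change by the root of its F statistic. Against 0 counts a level is given as what 3 counts over the group allow, and such limits and count intervals (95%, exact) cover counting error only, since the reads carried no molecular identifiers. The steps were tested on simulated data. The p-values set the difference between groups against the spread between replicate libraries, shared over the 6 groups. They do not cover variation between separately made cell lines.

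The pair, the 31 gene lists (807 entries, 771 matched to an ID, 642 tested) and the rules were chosen with earlier results of these data known. The genes named were HBB, the other globins, EP300 and RELA, the 12 with the largest log2 fold change each way (at least 2-fold, mean log2 CPM at least 1, libraries not overlapping), the 8 largest each way outside the division of the 12 libraries, 4 each way called against WT in both groups, and up to 4 of each list by smallest p. Other genes named (MDM2, PRAME, MAGEC1, IGF2, NUPR1, SESN2, ISG15, ZNF254, the uncalled p53 targets, the genes at 0 or unfiltered among markers, and the neighbour runs) were chosen after values were seen. Upstream sequences are RefSeq windows of GRCh38.p14, and that assembly served only for sequences, names and gene order, since the counts use hg19. Alternatives were RLE and upper-quartile factors, DESeq2, other filters, the compared groups alone, a replicate block and each library left out. Plots used Python 3.11.15 and matplotlib 3.10.9.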

Additional observations from a re-analysis of the deposited data

How the results depend on the processing

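For VPR sgHBB against p300 D1399Y sgHBB the count of called genes was 3527, and 3510 with RLE factors, 3576 with upper-quartile factors, 2877 with DESeq2, 3278 with no low-count filter, 3524 with a stricter filter and 2499 with the 4 libraries alone. Leaving out each library gave 1977 to 3770 called, 943 to 1980 higher and 1034 to 1790 lower. Without the genes that divide the other 8 libraries in the same direction, an alternative chosen after seeing the data, 153 were at least 2-fold higher and 143 at least 2-fold lower. VPR sgHBB against WT ran from 2548 to 4199 called when a library was left out, with 1358 to 2276 higher and 1190 to 1923 lower. Replicate numbers showed no pairing: the correlation of replicate differences between groups ran from -0.15 to 0.13 and was 0.12 for this pair. With the number as a block 3323 genes were called, 3314 of them also in the fit without it. Of 130 called genes among the 154 named other than HBB, 44 lost the call in at least 1 alternative and 4 of them (LUM, HSPH1, ATF3 and DUSP2) under the block, and none of the called values changed sign. With 2 libraries a group, small differences between low genes are beyond this depth.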
